A study of Mus musculus with 20 samples.

Results

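The genes described are 10 heterogeneous nuclear ribonucleoproteins (hnRNPs) that regulate splicing: Hnrnpa1, Hnrnpa2b1, Hnrnpc, Hnrnpd, Hnrnph1, Hnrnpk, Hnrnpl, Hnrnpm, Hnrnpu and Ptbp1. They were chosen by name, out of 37620 genes in the count table, and all 10 passed the filter on low counts in each comparison. Of 554616 splice junctions, 483 lie in these genes: 170 are annotated, 56 join annotated splice sites in another pairing and 257 use a splice site outside the annotation. They gave 59 alternative splicing events with enough reads to be tested in at least 1 comparison, of which 47 were cassette exons.

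The RNA came from bulk bone marrow of 20 mice in 4 groups of 5. Lethally irradiated congenic recipients, aged 6 to 12 weeks, had received marrow pooled from 2 to 3 donors aged 8 to 12 weeks. The donors carried rtTA and a doxycycline-inducible transgene of the splicing factor U2AF1, in its unmutated form, U2AF1(WT), or with the S34F mutation, U2AF1(S34F). All mice, controls included, were fed doxycycline chow at 625 ppm for 7 days. In the last 5 of these days they were infused with sudemycin D6, which targets SF3B1 in the spliceosome, at 50 mg per kg per day or with its vehicle, and marrow was taken 18 h after the last dose. The transgene is thus in the grafted haematopoietic cells, and the recipients keep their own stromal cells. Because donor marrow was pooled, p-values measure the spread between recipients.

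hnRNPs coat nascent transcripts in the nucleus. By binding exons or introns near a splice site they keep the spliceosome away from it or help to recruit it: PTBP1 and hnRNP C bind pyrimidine-rich tracts, often in competition with the U2AF heterodimer, and hnRNP H binds runs of G. Many of them also limit their own amount through an exon that brings an early stop codon when it is included, or when it is skipped. U2AF1 is the subunit of U2AF that reads the AG at the end of the intron, and the S34F change alters its preference for the base just before that AG. SF3B1 acts next, when the U2 particle settles on the branch point.

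The exons of these genes whose inclusion differed between groups are printed because they carry the main result. Each sequence is read 5′ to 3′ on the strand of the gene from the mouse reference NCBIM37 (mm9), the build of the deposited junctions. It opens with the last 20 bases of the upstream intron, of which the 3 that end the intron are in capitals. In the first and the fourth sequence the capitals inside the exon mark a stop codon in the reading frame.
Hnrnpl, 70-base exon, chr7:29602334-29602423, plus strand: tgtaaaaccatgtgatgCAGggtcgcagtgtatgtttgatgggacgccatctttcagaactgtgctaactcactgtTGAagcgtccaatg
Hnrnph1, 139-base exon, chr11:50194941-50195099, plus strand: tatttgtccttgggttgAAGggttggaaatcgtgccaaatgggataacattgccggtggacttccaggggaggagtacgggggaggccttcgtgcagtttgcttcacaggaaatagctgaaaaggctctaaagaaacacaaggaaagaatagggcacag
Hnrnpm, 53-base exon, chr17:33807026-33807098, minus strand: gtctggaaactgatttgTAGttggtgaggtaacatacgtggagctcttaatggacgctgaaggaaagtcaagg
Hnrnph1, 50-base exon, chr11:50198623-50198692, plus strand: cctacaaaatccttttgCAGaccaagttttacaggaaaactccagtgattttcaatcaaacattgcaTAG
Hnrnpd, 57-base exon, chr5:100405553-100405629, minus strand: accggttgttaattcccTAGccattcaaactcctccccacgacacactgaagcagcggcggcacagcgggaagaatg
Hnrnpa2b1, 120-base exon, chr6:51414427-51414566, minus strand: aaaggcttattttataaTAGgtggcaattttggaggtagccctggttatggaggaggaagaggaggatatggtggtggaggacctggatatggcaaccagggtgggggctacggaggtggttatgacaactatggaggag
Ptbp1, 78-base exon, chr10:79322842-79322939, plus strand: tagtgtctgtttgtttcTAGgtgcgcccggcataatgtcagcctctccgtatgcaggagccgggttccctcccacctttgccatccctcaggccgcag
Hnrnpm, 54-base exon, chr17:33789218-33789291, minus strand: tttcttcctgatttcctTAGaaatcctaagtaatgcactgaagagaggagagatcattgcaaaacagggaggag

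All 8 exons are coding. The first 4 have a length that is not a multiple of 3, and in the first 3 of them inclusion or skipping brings an early stop codon into the frame. With its 70-base exon, the Hnrnpl transcript reaches the TGA at base 57 of that exon after 309 codons, 842 bases before the last exon junction, whereas it reads 586 codons without it. The 139-base exon of Hnrnph1 works the other way round: without it the frame ends after 184 codons, 656 bases before the last junction, and with it the frame runs for 449 codons. Skipping the 53-base exon of Hnrnpm likewise ends the frame after 98 codons. Stops so far upstream of the last junction are the usual trigger of nonsense-mediated decay. The 50-base exon of Hnrnph1 holds the TAG stop codon itself, at base 48, and exchanges an end at 449 codons for one at 472. The other 4 are multiples of 3 and keep the frame: 19 codons of Hnrnpd (355 or 336 in all), 40 of Hnrnpa2b1 (341 or 301), 26 of Ptbp1 (555 or 529) and 18 of Hnrnpm (729 or 711). The base before the AG is T in 5 of the 8 exons, C in 2 and A in 1. Over the 52140 3′ splice sites of cassette exons built from the junctions, it was C in 59.1%, T in 34%, A in 6.52% and G in 0.38%.

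The counts on genes summed to 41145892 to 62138138 per mouse and those on junctions to 34384214 to 64813149. U2af1, counted without telling transgene from endogenous gene, had 34.8 to 38.4 CPM (counts scaled to a common library size) in the U2AF1(WT) vehicle mice and 46.4 to 54.3 in the U2AF1(S34F) vehicle mice. Xist was at 879 CPM or more in all U2AF1(WT) mice and at 0.145 or less in all U2AF1(S34F) mice, while Eif2s3y was at 0 in the former and at 76.8 CPM or more in the latter. The genotypes therefore also differ in sex-linked transcripts, and in each genotype comparison here the 2 cannot be told apart. Each drug comparison is made within mice of 1 such pattern. The donors of the 2 genotypes differed too. Total U2af1 was higher in U2AF1(S34F) mice, by 0.48 on the log2 scale under vehicle (edgeR, FDR=0.00029) and by 0.35 under the drug (FDR=0.0042). In the genotype comparisons neither donors nor U2af1 level can be told apart from the mutation. Of 10 neutrophil markers all 10 were detected, with a summed level of 59400 to 141000 CPM per mouse, as marrow should have.

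Compared per kilobase of exon (RPKM, here CPM divided by the length of all annotated exons merged, in kilobases), Hnrnpk was the most abundant of the 10, at 172 ± 17 RPKM (mean ± SD over 20 mice), and stood above the next gene in all 20 mice. hnRNP K binds C-rich RNA. Hnrnpa1 (109 ± 18.1 RPKM), which represses exons by spreading along them, and Hnrnpa2b1 (107 ± 17.5 RPKM) could not be ordered, since Hnrnpa1 was above Hnrnpa2b1 in 11 of 20 mice. Hnrnpu (101 ± 8.92 RPKM), a nuclear scaffold protein, was the fourth, with Hnrnpa2b1 above it in 13 mice. A lower set followed, in which neighbours did not separate beyond their spread: Hnrnph1 at 51.2 ± 4.07, Hnrnpc at 46.3 ± 6.07, Hnrnpl at 44.3 ± 3.34, Ptbp1 at 40.9 ± 4.15 and Hnrnpm at 40.8 ± 3.72 RPKM. Hnrnpd, which binds AU-rich elements and promotes decay of the transcripts that hold them, was the lowest in every mouse at 16.9 ± 2.80 RPKM. These levels depend on the length used. Over the longest coding transcript only 2 of 10 genes, Hnrnpk and Hnrnpd, held their place, and Hnrnph1 moved from 51.2 to 123 RPKM. Levels between groups, below in CPM, do not depend on length.

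**Figure D1:**
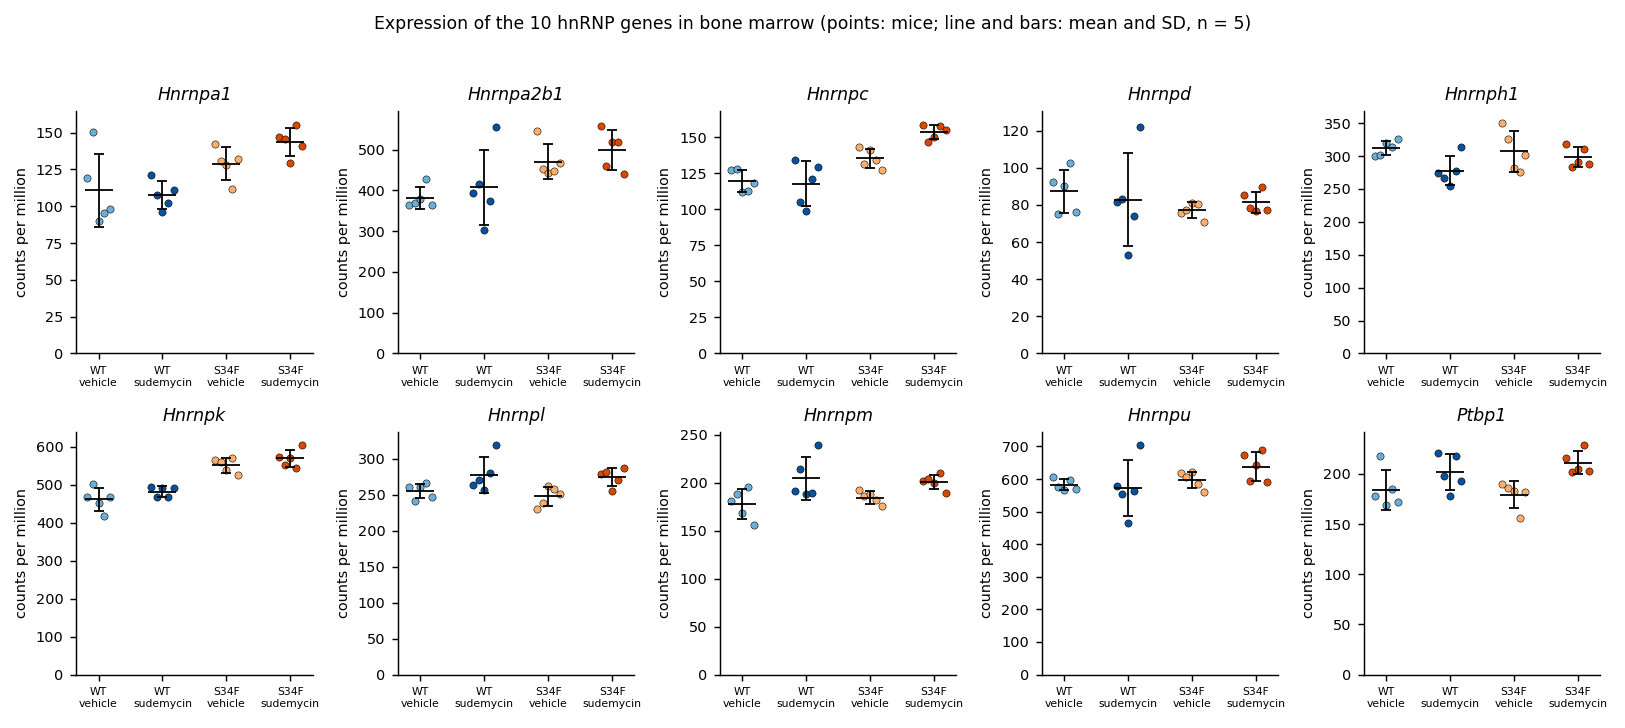
Level of each of the 10 hnRNP genes in CPM, by mouse (points), with the mean and SD of each group of 5 (line and bars). Hnrnpc reaches 154 ± 5.00 CPM in the U2AF1(S34F) sudemycin mice against 120 ± 7.63 in the U2AF1(WT) vehicle mice, while the 4 groups of Hnrnpd overlap.

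Sudemycin D6 changed the expression of few of these genes. In U2AF1(WT) mice none of the 10 passed the test (edgeR quasi-likelihood, FDR<10%), 1 had an unadjusted p under 0.05 and DESeq2 also called 0; over all genes tested 3.07% were called. Log2 fold changes of drug against vehicle ran from -0.19 for Hnrnph1 (standard error 0.08, FDR=0.345) to 0.18 for Hnrnpm (0.10, FDR=0.452), with a median of 0.00 for the 10 genes and 0.004 for all genes. Several members were widely spread in the U2AF1(WT) sudemycin mice. Hnrnpu was at 465 CPM in mouse 9 and at 704 in mouse 12, Hnrnpa2b1 at 302 and 555, and Hnrnpd at 53.1 and 122. Mouse 9 had the lowest and mouse 12 the highest mean of the 10 genes among all 20 mice, at -1.47 and 1.06 when each gene is scaled to a mean of 0 and an SD of 1. Of cell type markers, 3 of 10 progenitor, 2 of 10 B-cell and 1 of 10 monocyte and macrophage markers fell under the drug in U2AF1(WT) mice. In these 3 lists 0 rose, and their part in the result was not tested.

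In U2AF1(S34F) mice 2 of the 10 genes, Hnrnpc and Ptbp1, rose under the drug, where 10.8% of all genes were called and 4.94% as higher. Ptbp1 had 190, 186, 183, 156 and 182 CPM in the vehicle mice and 216, 202, 205, 229 and 203 CPM in the sudemycin mice. Every treated mouse was above every control, and the log2 fold change was 0.23 (standard error 0.07, FDR=0.060). Hnrnpc had 143, 132, 141, 134 and 127 CPM under vehicle and 159, 147, 150, 158 and 155 CPM under the drug, again without overlap, with a log2 fold change of 0.18 (0.05, FDR=0.068). The other 8 genes lay between -0.05 for Hnrnph1 and 0.15 for Hnrnpa1, and 9 of the 10 were above 0. The median of the 10 was 0.105, against -0.009 for all genes. Both calls were close to the limit: that of Hnrnpc was lost without vehicle mouse 3 or 11 or sudemycin mouse 2, 9, 10 or 12 (log2 fold change 0.15 to 0.19, FDR 0.103 to 0.157), that of Ptbp1 without vehicle mouse 11 or sudemycin mouse 2 or 10 (0.20 to 0.23, FDR 0.113 to 0.132), and in a single model of all 20 mice 0 of the 10 genes were called. In bulk marrow fewer cells of a type and less RNA per cell cannot be told apart. In the same comparison 3 of 10 cell cycle genes and 1 of 10 monocyte and macrophage markers rose, and 6 of 10 progenitor markers and 3 of 10 each of the B-cell, T- and NK-cell and megakaryocyte markers fell. The progenitor markers summed to 153 to 193 CPM under vehicle and 103 to 139 under the drug, and the B-cell markers to 16.6 to 170 and 35.0 to 53.1 CPM. The T- and NK-cell markers summed to 82.8 to 106 and 70.8 to 87.3 CPM and the megakaryocyte markers to 56.4 to 83.7 and 30.6 to 62.0 CPM, and none of these genes was at 0 throughout a group. Their part in the result was not tested.

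Between genotypes under vehicle, Hnrnpa2b1, Hnrnpk and Hnrnpc were higher in U2AF1(S34F) mice. These are 3 of 10, or 30%, where 39.5% of all genes were called, 19.7% as higher and 19.8% as lower. Hnrnpa2b1 had 365, 370, 380, 428 and 365 CPM in the U2AF1(WT) vehicle group, against 546, 453, 443, 447 and 467 CPM in U2AF1(S34F) mice. The groups did not overlap, and the log2 fold change was 0.29 (standard error 0.09, FDR=0.021). Hnrnpk had 468, 501, 451, 418 and 469 CPM against 565, 558, 538, 570 and 524 CPM, without overlap and with a log2 fold change of 0.24 (0.08, FDR=0.026). Hnrnpc, at 112 to 128 CPM against 127 to 143 CPM, overlapped, and its log2 fold change of 0.17 (0.07) passed by little (FDR=0.094). It no longer passed without U2AF1(WT) mouse 3, 4 or 5 or U2AF1(S34F) mouse 1, 5, 7 or 11 (0.15 to 0.19, FDR 0.109 to 0.203), and without U2AF1(WT) mouse 2 the number of genes called was 5. Of the neutrophil markers 4 of 10 were higher in U2AF1(S34F) mice, with a summed level of 63700 to 72600 CPM in U2AF1(WT) and 86300 to 141000 in U2AF1(S34F) vehicle mice. Of the cell cycle genes 4 of 10 were higher, of the monocyte and macrophage markers 2 were higher and 3 lower, and of the megakaryocyte markers 1 was higher and 3 were lower. Of the T- and NK-cell markers 2 were higher and 1 lower, and of the progenitor and stromal markers 1 each was higher and 2 each lower. Their part in the result was not tested.

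Under sudemycin D6 the genotypes differed in Hnrnpa1, Hnrnpc and Hnrnpk, again 3 of 10 and all higher in U2AF1(S34F) mice, against 36.8% of all genes called, 17.2% as higher and 19.6% as lower. The values of these 3 did not overlap between the groups, but the share of all genes without overlap is not given here. Hnrnpa1 had 121, 108, 96.0, 102 and 111 CPM in the U2AF1(WT) sudemycin group, against 147, 146, 129, 155 and 141 CPM in U2AF1(S34F) mice, and rose by 0.41 on the log2 scale (standard error 0.08, FDR=0.0030). Hnrnpc had 134, 105, 98.7, 121 and 130 CPM against the 147 to 159 CPM given above (log2 fold change 0.38, standard error 0.09, FDR=0.010). Hnrnpk had 467 to 492 CPM in the former and 545 to 604.5 CPM in the latter (log2 fold change 0.24, standard error 0.07, FDR=0.024), close to the change under vehicle. Without U2AF1(WT) mouse 12, the mouse with the highest mean of the 10 genes, 5 of them were called. In this comparison 8 of 10 cell cycle genes, 5 of 10 monocyte and macrophage markers and 2 of 10 neutrophil markers were higher in U2AF1(S34F) mice, with 1 monocyte marker lower. Of the B-cell and the T- and NK-cell markers 5 each were lower, and of the erythroid and megakaryocyte markers 4 each. Of the progenitor markers 1 was lower, and of the stromal markers 1 was higher and 1 lower. The monocyte and macrophage markers summed to 1960 to 2250 CPM with U2AF1(WT) and 2440 to 3150 CPM with U2AF1(S34F), and the T- and NK-cell markers to 62.3 to 103 and 70.8 to 87.3 CPM. Their part in the result was not tested. The counts of Hnrnpa1 are less certain than the others, because 19 stretches elsewhere in the genome match at least 50% of its transcript, 1 of them at an identity of 90% or more. Hnrnpk has 1 such copy, also at 90% or more, and Hnrnpc and Ptbp1 have 2 each, with 0 at 90% or more. Reads that belong to such copies cannot be separated here.

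The joint comparison of sudemycin-treated U2AF1(S34F) with vehicle-treated U2AF1(WT) mice called 6 of the 10 genes, all higher, where 50.2% of all genes were called and 25.1% as higher. Hnrnpa2b1 rose by 0.39 on the log2 scale (standard error 0.08, FDR=0.0026), Hnrnpa1 by 0.37 (0.12, FDR=0.026), Hnrnpc by 0.36 (0.07, FDR=0.00089) and Hnrnpk by 0.30 (0.07, FDR=0.0044). Ptbp1 at 0.19 (0.08, FDR=0.067) and Hnrnpm, a factor that binds GU-rich RNA, at 0.18 (0.07, FDR=0.069) were called by less. Hnrnpa2b1, Hnrnpc and Hnrnpk did not overlap between the groups, again without the share of all genes to set this against. The call of Hnrnpm was lost without U2AF1(WT) mouse 1, 3 or 5 or U2AF1(S34F) mouse 2, 6, 9 or 10 (FDR 0.101 to 0.163) and that of Ptbp1 without U2AF1(WT) mouse 1, 3, 4 or 5 or U2AF1(S34F) mouse 2 or 10 (FDR 0.105 to 0.172). This comparison shares its mice with the others, so that its calls are no separate evidence. In it all 10 cell cycle genes and 4 of 10 neutrophil markers were higher. All 10 B-cell, 6 progenitor and 4 erythroid markers were lower. Other lists were mixed: 2 T- and NK-cell markers were higher and 7 lower, and 1 megakaryocyte marker was higher and 6 lower. Of the monocyte and macrophage markers 3 were higher and 2 lower, and of the stromal markers 1 was higher and 3 lower. The summed level of the cell cycle genes was 2410 to 4050 CPM in the U2AF1(WT) vehicle mice, 2580 to 3410 in the U2AF1(WT) sudemycin mice, 3770 to 4490 in the U2AF1(S34F) vehicle mice and 3870 to 4340 in the U2AF1(S34F) sudemycin mice. Their part in the differences between genotypes was not tested. No member passed the test of the interaction of genotype and drug, which called 0.013% of all genes (edgeR; 0 had an unadjusted p under 0.05 and DESeq2 called 0), with the lowest FDR at 0.712 for Hnrnpc, whose drug effect was 0.21 (0.11) higher on the log2 scale in U2AF1(S34F) mice.

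**Figure D2:**
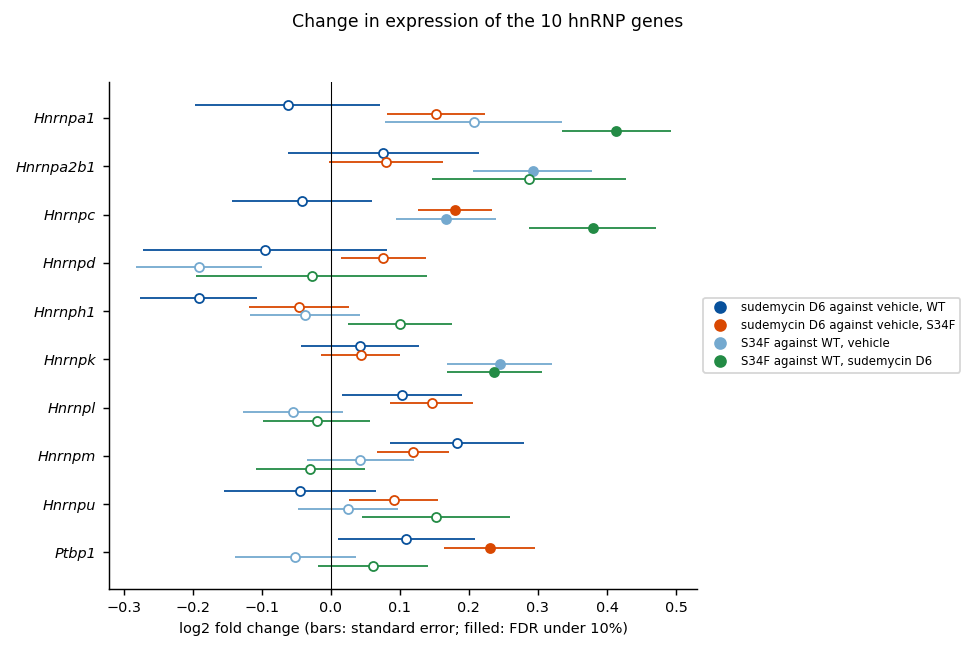
Log2 fold change of each hnRNP gene in the 2 drug and the 2 genotype comparisons (points, with bars for the standard error; filled points passed FDR<10%). The largest is the 0.41 of Hnrnpa1 between genotypes under sudemycin D6, and no filled point lies below 0.

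Inclusion of an exon, Ψ, was measured as the percentage of transcripts that hold it, from the reads on its 2 inclusion junctions (averaged) and on the junction that skips it. An event was called at FDR<10% and a change over 1 percentage point. Most tested exons of these genes were constitutive or nearly so: of 59 events 37 had a mean Ψ above 95%, 17 lay between 5% and 95% and 5 were below 5%. In the 5 comparisons 1 of 52, 1 of 50, 3 of 53, 6 of 46 and 8 of 49 member events were called (drug in U2AF1(WT), drug in U2AF1(S34F), genotype under vehicle, genotype under drug, and both together). The shares are 1.92%, 2.0%, 5.66%, 13% and 16.3%, against 0.96%, 1.2%, 3.22%, 3.25% and 6.16% of all events. Member events and all events were not matched for reads, so these shares do not show an excess particular to the 10 genes. The median absolute change of the members was smaller than that of all events, at 0.307 to 0.623 points against 0.981 to 1.34. The calls rest on the form of the test, with a dispersion of 0 taken from an earlier analysis of these data, whose results were known. With a dispersion estimated by edgeR no member event was called in any comparison, and 3, 26, 50, 122 and 137 events were called over all genes. Of cassette exons over all genes, that setting called 0 in every comparison but the joint one, where it called 29 of 25424. Its 0 for member exons therefore does not set them apart from other cassette exons. With limma on Ψ 1, 0, 1, 1 and 4 member events were called.

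The exon called in both drug comparisons was the 70-base exon of Hnrnpl, a regulator that binds CA-rich RNA and is known to promote inclusion of such an exon in its own transcript. Its Ψ was 4.56, 5.42, 5.19, 7.91 and 6.11% in the U2AF1(WT) vehicle mice and 16.2, 11, 14.3, 11.2 and 16.9% in the U2AF1(WT) sudemycin mice. All treated mice were above all controls, and the mean rose from 5.84% ± 1.28 to 13.9% ± 2.74 (SD, n = 5; a change of 8.06 points, FDR=5.1e-07). In U2AF1(S34F) mice it was 4.07, 5.72, 6.57, 5.41 and 7.14% under vehicle and 8.79, 11.7, 8.34, 7.35 and 8.32% under the drug. These groups did not overlap either, and Ψ rose by 3.11 points (FDR=0.014), a call that was lost without sudemycin mouse 6 (2.42 points, FDR=0.1015). The genotypes were alike under vehicle to within 0.05 points (FDR=0.977). Under the drug U2AF1(S34F) mice were lower by 5.01 points (FDR=0.0037), with overlap. The interaction did not pass over all events (-4.95 points, unadjusted p=0.0051, FDR=0.889), so that a difference between the drug effects is not shown. The total level of Hnrnpl was 255 ± 10.2 CPM under vehicle and 278 ± 24.9 under the drug in U2AF1(WT) mice; with U2AF1(S34F) it was 248 ± 13.6 and 275 ± 12.7 CPM; neither difference passed the test (log2 fold change 0.10, FDR=0.672, and 0.15, FDR=0.177).

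Ptbp1, the polypyrimidine tract binding protein, skipped its 78-base exon more often in U2AF1(S34F) mice. This exon encodes part of the linker between RNA-binding domains, and isoforms with and without it are known to differ in their strength as repressors. Under vehicle Ψ was 35.5, 35.8, 37.3, 38.8 and 36.0% with U2AF1(WT), against 27.6, 29.4, 28.6, 28.6 and 25.5% in U2AF1(S34F) mice. The groups were well apart, and Ψ fell by 8.75 points (FDR=0.0013). Under the drug it was 33.0, 44.1, 45, 32.7 and 30.6% against 30.1, 26.8, 31.1, 25.8 and 23.7%, a difference of -9.59 points (FDR=0.014). Here the 2 groups overlapped narrowly, and of the U2AF1(WT) mice 3 were at 33.0% or less and 2 at 44.1% or more. The drug did not change it in either genotype by the test (0.41 points, FDR=0.996, and -0.42 points, FDR=0.966).

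The 120-base exon of Hnrnpa2b1 behaved in like manner. It encodes part of the glycine-rich tail of hnRNP A2/B1, a low-complexity domain. Under vehicle Ψ was 35.7, 35.7, 33.2, 35.9 and 31.4% with U2AF1(WT), against 32.0, 30.7, 29.4, 26.4 and 25.6% in U2AF1(S34F) mice. The difference was -5.58 points (FDR=0.0066) with 1 mouse of each group in the overlap. Under the drug it was 34.4% ± 3.27 against 29.3% ± 1.89 (-5.11 points, FDR=0.029), a call lost without U2AF1(WT) mouse 12 (-4.04 points, FDR=0.161). Drug against vehicle gave -0.01 points with U2AF1(WT) and 0.46 points with U2AF1(S34F), neither called.

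Hnrnph1 had 2 exons that were more included in U2AF1(S34F) mice. The 139-base exon, whose skipping ends the frame early, had a Ψ of 74.7, 79.1, 70.4, 70.5 and 71.0% in U2AF1(WT) vehicle mice and 81.3, 79.3, 81.4, 76.3 and 83.1% in U2AF1(S34F) vehicle mice, a rise of 7.11 points (FDR=0.047) with overlap. Under the drug it was 77.4, 83.2, 77.8, 80.8 and 75.9% against 82.9, 84.1, 84.3, 86.4 and 81.3% (4.76 points, FDR=0.090). Between the extreme groups the rise was 10.7 points (FDR=8.3e-05), without overlap. The drug alone gave 5.90 points in U2AF1(WT) mice (FDR=0.321), against 3.54 points in U2AF1(S34F) mice (FDR=0.270), which did not pass. The call under vehicle was lost without U2AF1(WT) mouse 3, 4 or 5 or U2AF1(S34F) mouse 1 or 11 (6.41 to 6.86 points, FDR 0.105 to 0.166), and that under the drug without U2AF1(WT) mouse 6, 9 or 12 or U2AF1(S34F) mouse 2, 6, 9 or 10 (3.98 to 4.99 points, FDR 0.131 to 0.255). The 50-base exon that ends the shorter frame was included at 89.3, 87.2, 90.9, 84.9 and 86.5% in U2AF1(WT) sudemycin mice and at 93.0, 92.9, 93.4, 93.4 and 91.5% in U2AF1(S34F) sudemycin mice. These groups did not overlap (5.09 points, FDR=0.0047). The joint comparison called it as well (3.11 points, FDR=0.079), but not without U2AF1(WT) mouse 3, 4 or 5 or U2AF1(S34F) mouse 2, 6, 9 or 10 (2.24 to 3.10 points, FDR 0.133 to 0.233). Under vehicle the difference of 2.77 points was not called (FDR=0.221). The gene as a whole was at 278 to 312 CPM in the group means and was called in no comparison.

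Hnrnpm and Hnrnpd completed the called exons. The 53-base exon of Hnrnpm was included at 94.5, 95, 92.0, 94.2 and 93.7% in U2AF1(WT) vehicle mice and at 96.7, 95.5, 96.2, 96.9 and 96.8% in U2AF1(S34F) sudemycin mice, without overlap (2.52 points, FDR=0.024); the genotypes did not overlap under vehicle either, but that difference of 2.09 points was not called (FDR=0.177). Its 54-base exon moved the other way, from 97.4% ± 0.729 in U2AF1(WT) to 94.8% ± 1.25 in U2AF1(S34F) sudemycin mice (-2.66 points, FDR=0.052) and by -2.15 points in the joint comparison (FDR=0.094), with overlap in both. The first of these calls was lost without U2AF1(WT) mouse 10 or U2AF1(S34F) mouse 2, 9 or 10 (FDR 0.129 to 0.172) and the second without U2AF1(WT) mouse 2, 4 or 5 or U2AF1(S34F) mouse 2, 9, 10 or 12 (FDR 0.130 to 0.220). The 57-base exon of Hnrnpd is 1 of the 2 exons that set the 4 protein isoforms of this gene, also known as AUF1. It was included at 57.8, 51.1, 58.7, 60.0 and 57.7% in U2AF1(WT) vehicle mice and at 51.8, 49.9, 38.7, 52.4 and 42.5% in U2AF1(S34F) sudemycin mice, a change of -10 points (FDR=0.026) with 1 control mouse in the range of the treated ones; without U2AF1(S34F) mouse 9 it was -7.93 points and not called (FDR=0.131). The other exon that sets these isoforms, of 147 bases, was at 61.1% ± 1.98, 64.6% ± 3.98, 58.1% ± 3.45 and 60.4% ± 2.25 in the U2AF1(WT) vehicle, U2AF1(WT) sudemycin, U2AF1(S34F) vehicle and U2AF1(S34F) sudemycin mice, and was called in no comparison.

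**Figure D3:**
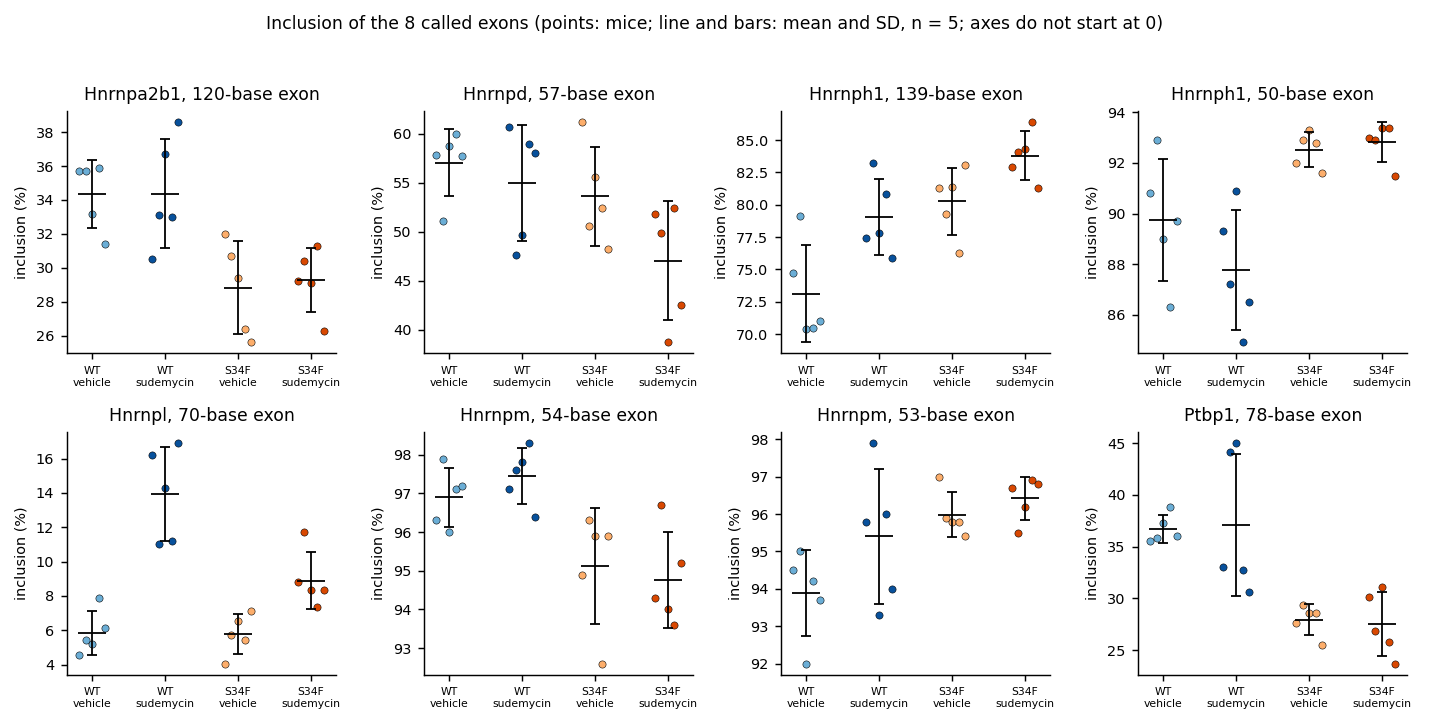
Inclusion Ψ in percent of the 8 called hnRNP exons, by mouse (points), with the mean and SD of each group of 5; axes do not start at 0. The Hnrnpl exon is higher in both sudemycin groups (13.9% and 8.89%) than in the vehicle groups (5.84% and 5.78%), and the Ptbp1 exon is lower in both U2AF1(S34F) groups (27.9% and 27.5%) than in the U2AF1(WT) groups (36.7% and 37.1%).

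Read against the printed sequences, the 4 exons that were less included in U2AF1(S34F) than in U2AF1(WT) mice in a genotype or the joint comparison at every call (Ptbp1, Hnrnpa2b1, Hnrnpd and the 54-base exon of Hnrnpm) have T before the AG. The 3 that were more included have A or C (Hnrnph1) or T (53-base exon of Hnrnpm), and the Hnrnpl exon, lower between genotypes under the drug and higher in the joint comparison, has C. With 8 exons this is a description. No member event passed the interaction test (edgeR; 1 of 53, that of Hnrnpl, had an unadjusted p under 0.05, limma also called 0, and 0.0% of all events were called).

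The remaining events of intermediate inclusion, 11 in all, were not called, and those named here were chosen after their values were seen. They were 6 cassette exons, that of 147 bases in Hnrnpd among them, and 5 events of other types. The 54-base exon of Hnrnpk had group means of 10.5% ± 0.882, 10.5% ± 1.05, 11.3% ± 1.07 and 11.3% ± 1.13, in the order of groups used for Hnrnpd. A 159-base exon of Hnrnpa1 was at 5.28% ± 0.587, 5.85% ± 2.48, 5.09% ± 0.668 and 5.42% ± 0.281, and a 497-base exon of Hnrnpl at 65.2% ± 5.52, 66.5% ± 2.74, 65.2% ± 7.68 and 65.0% ± 9.20. Events with few reads spread far more. With other flanking exons, the 159-base exon of Hnrnpa1 (39.7 reads per mouse) went from 62.5% ± 29.1 to 93.0% ± 12.7 under the drug in U2AF1(WT) mice (30.5 points, FDR=0.524, with overlap). An alternative 5′ splice site of Hnrnpd (37.3 reads) went from 49.9% ± 5.21 to 71.7% ± 16.8 under the drug in U2AF1(S34F) mice, without overlap (21.7 points, FDR=0.669). An alternative 3′ splice site of Ptbp1 (16.9 reads) gave differences of -15.9 to 18.5 points, with overlap in each comparison (FDR 0.929 to 0.987). For the 4 genes without a called event, the exon with the most reads was included almost always: the 156-base exon of Hnrnpa1 at 98.1% or more in each mouse, the 48-base exon of Hnrnpc at 98.1% or more, the 129-base exon of Hnrnpk at 99.6% or more and the 112-base exon of Hnrnpu at 99.6% or more.

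Junctions outside the annotation were followed through their share of the reads at a splice site that they have in common with other junctions. Member shares called were 11 of 210, 7 of 225, 11 of 215, 16 of 223 and 31 of 227 in the 5 comparisons, in the order given for exons. These are 5.24%, 3.11%, 5.12%, 7.17% and 13.7%, against 0.44%, 0.618%, 1.6%, 1.6% and 3.74% of all shares, but junctions at a site are not independent of each other. Member shares and all shares were also not matched for reads. With an estimated dispersion 0 member shares were called in each comparison, and 0, 0, 0, 1 and 71 over all genes. In all, 9 junctions with an unannotated site were called at least once, 4 in Hnrnpa2b1, 4 in Hnrnpc and 1 in Hnrnpl. The 3′ splice sites that 3 of the 5 described junctions enter are printed, with that of a 26-base exon of Hnrnpc bounded by 2 of the others. For the first 3 sequences only 20 intron bases and 3 exon bases are shown, and for the fourth the whole exon; capitals mark the end of the intron.
Hnrnpa2b1, exon after the stop codon, chr6:51412052-51412074, minus strand: tttccctgctggaatttTAGcat
Hnrnpc, splice site entered from the first exon, chr14:52718217-52718239, minus strand: tgtcccttctcctttcaCAGggc
Hnrnpc, 26-base exon before the start codon, chr14:52717713-52717735, minus strand: ttatttttgtttttttaCAGtga
Hnrnpa2b1, 36-base exon of the B1 isoform, chr6:51417390-51417445, minus strand: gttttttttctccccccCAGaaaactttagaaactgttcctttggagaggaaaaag

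The hnRNP A2 and B1 proteins differ by the 36-base exon near the start of the coding sequence, which lengthens the frame from 341 to 353 codons. The junction from the first exon (chr6:51419670) into it took 10.9, 11.4, 12.1, 10.3 and 11.4% of the reads that leave that exon in U2AF1(WT) vehicle mice, and 14.5, 14.0, 12.7, 15.1 and 15.6% in U2AF1(WT) sudemycin mice. In U2AF1(S34F) mice it took 10.7, 10.2, 10.8, 8.80 and 9.61% under vehicle and 14.6, 13.6, 13.6, 15.2 and 16.9% under the drug. All mice given sudemycin D6 were above all those given vehicle, within each genotype. The share rose by 3.15 points (FDR=0.089) where U2AF1 was unmutated and by 4.75 points (FDR=0.0070) with U2AF1(S34F). The genotypes did not differ by the test, at -1.22 points under vehicle (FDR=0.475) and 0.379 points under the drug (FDR=0.986).

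Another 3 junctions of Hnrnpa2b1 bound an unannotated exon in the 3′ untranslated region, of 73 or 136 bases according to its 5′ splice site (chr6:51411982-51412054 or chr6:51411919-51412054). All 3 were highest in U2AF1(WT) vehicle mice. The junction leaving the 73-base form had 18.9, 11.5, 21.4, 13.6 and 18.5% of the reads that enter the last exon in these mice, and 6.90, 6.18, 7.11, 5.44 and 4.92% in U2AF1(S34F) vehicle mice. The groups did not overlap, and the share fell by 10.6 points (FDR=0.0023). Under the drug it was 8.23% ± 1.38 in U2AF1(WT) and 4.09% ± 0.625 in U2AF1(S34F) mice (-4.14 points, FDR=0.040), also without overlap, and the drug moved it by -8.52 points in U2AF1(WT) mice (FDR=0.077). In U2AF1(S34F) mice the drug gave -2.02 points without a call (FDR=0.319), though these groups did not overlap either. The junction leaving the 136-base form had means of 18.4% ± 4.12, 13.2% ± 4.84, 7.97% ± 1.92 and 7.38% ± 1.49 in the order of groups above, and fell between genotypes under vehicle by 10.4 points (FDR=0.0060). The junction that enters the exon had 7.45% ± 1.37, 5.58% ± 1.74, 4.93% ± 0.685 and 2.90% ± 0.716 of the reads at its 5′ splice site, and fell under the drug in U2AF1(S34F) mice by 2.02 points (FDR=0.058). Between genotypes under the drug it differed by -2.67 points (FDR=0.082), with overlap. The annotated junction that skips this exon (chr6:51411432-51413410), added after its values were seen, moved the other way, with shares of 64.8% ± 6.19, 78.6% ± 5.55, 85.6% ± 2.77 and 88.5% ± 1.53. It rose by 20.8 points between genotypes under vehicle (FDR=0.00051). At the 5′ splice site that the unannotated exon is entered from, the annotated junction with most reads (chr6:51413253-51413410), also added later, had shares of 74.7% ± 2.45, 70.0% ± 4.47, 60.4% ± 5.21 and 63.2% ± 2.37. It fell between genotypes by 14.4 points under vehicle (FDR=0.0027) and by 6.86 points under the drug (FDR=0.098). Whether the drug effects on these shares differ between genotypes was not tested.

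In Hnrnpc 2 of the 4 called junctions leave the first exon (chr14:52723564), upstream of the start codon, and the other 2 enter the next annotated exon (chr14:52704066). The junction from the first exon to chr14:52718219 had 19.3, 15, 22.0, 24.2 and 17.2% of the reads at that site in U2AF1(WT) vehicle mice and 9.53, 13.1, 12.4, 13.8 and 14.1% in U2AF1(S34F) vehicle mice, a difference of -6.97 points (FDR=0.074) without overlap. Under the drug the values were 17.3, 13.2, 17.6, 13.9 and 12.9% against 10.3, 10.5, 7.44, 7.40 and 9.46%, a difference of -5.96 points (FDR=0.033), again without overlap. Of the junctions outside the 5 described, the one that leaves the 26-base exon printed above (chr14:52704066-52717690) had 50.9% ± 3.36, 37.1% ± 7.47, 56.3% ± 3.39 and 49.9% ± 3.94 of the reads that enter the next exon. Under the drug it was higher in U2AF1(S34F) mice by 12.9 points (FDR=0.068), with overlap, and its difference between drug and vehicle in U2AF1(WT) mice, -13.8 points, was not called (FDR=0.123). The annotated junction past this exon (chr14:52704066-52723564) rose under the drug in U2AF1(WT) mice by 16.7 points (FDR=0.024), from 37.1% ± 4.18 to 53.8% ± 6.13, without overlap. In U2AF1(S34F) mice it went from 36.3% ± 3.01 to 43.7% ± 3.15, also without overlap but not called (7.36 points, FDR=0.177), and under the drug it was lower in U2AF1(S34F) mice by 10.2 points (FDR=0.095), with overlap. As a share of the reads that leave the first exon, the same junction rose under the drug in both genotypes, by 16.5 points (FDR=0.031) with U2AF1(WT) and by 8.65 points (FDR=0.0985) with U2AF1(S34F). These 2 junctions were named after their values were seen.

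**Figure D4:**
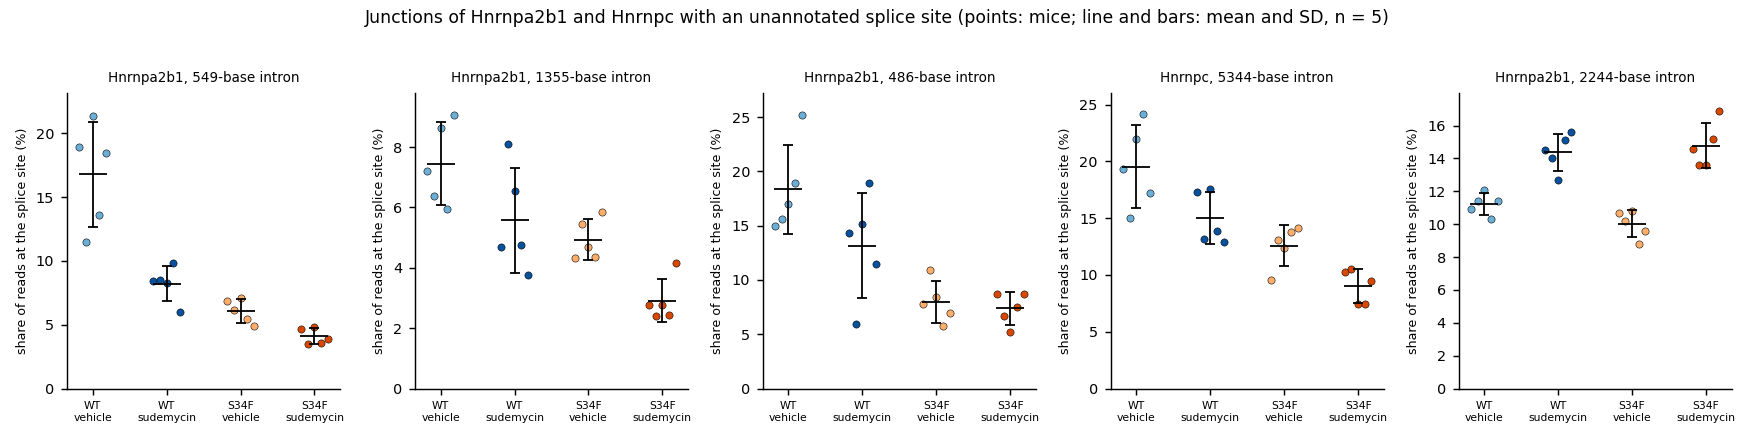
Share of reads in percent at the splice site in common, for the 5 junctions of Hnrnpa2b1 and Hnrnpc with an unannotated splice site, by mouse (points), with the mean and SD of each group of 5. The first 4 are highest in U2AF1(WT) vehicle mice, and the last, which enters the B1 exon of Hnrnpa2b1, is higher in both sudemycin groups (14.4% and 14.8%) than under vehicle (11.2% and 10%).

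Of 20 other hnRNP genes all 20 were tested. The counts below, for these and for other regulators, stand beside these shares of all genes called. For the drug they were 3.07% in U2AF1(WT) and 10.8% in U2AF1(S34F) mice. Between genotypes they were 39.5% under vehicle and 36.8% under the drug, and in the joint comparison 50.2%. In U2AF1(WT) mice the drug changed 0 of them, and in U2AF1(S34F) mice 3, all higher, among them Pcbp2 (log2 fold change 0.46, standard error 0.11, FDR=0.028) and Pcbp1 (0.29, 0.10, FDR=0.0997), which bind C-rich RNA as hnRNP K does. Between genotypes 12 of the 20 were called under vehicle, 6 in each direction, and 8 under the drug, 4 in each direction. Among the 10 genes above all calls were higher. They were 3 in each of these comparisons, with Hnrnpc and Hnrnpk in both, too few to set the genes apart. Pcbp2 was lower in U2AF1(S34F) mice under vehicle (-0.62, 0.09, FDR=0.00037). Hnrnpr was higher under vehicle (0.32, 0.07, FDR=0.0050) and under the drug (0.28, 0.09, FDR=0.033), as were Ptbp3, a paralogue of Ptbp1, under vehicle (0.32, 0.09, FDR=0.018) and Rbmx under the drug (0.26, 0.06, FDR=0.0095). Hnrnpul2 was lower under the drug (-0.35, 0.14, FDR=0.082). The joint comparison called 9, 7 higher and 2 lower. Of 17 splicing regulators of other families, the drug changed 0 in U2AF1(WT) and 3 in U2AF1(S34F) mice: Rbfox2 (0.69, 0.15, FDR=0.026) and Elavl1 (0.16, 0.05, FDR=0.089) rose and Matr3 (-0.24, 0.07, FDR=0.049) fell. Rbfox2 was low throughout, at 2.015 ± 0.897, 2.022 ± 0.433, 2.057 ± 0.225 and 3.335 ± 0.576 CPM in the order of groups used for Hnrnpd. The genotypes differed in 11 under vehicle (5 higher, 6 lower) and in 7 under the drug (6 higher, 1 lower), with Celf1, which binds GU-rich RNA, lower in both (-0.38, 0.08, FDR=0.0040, and -0.34, 0.08, FDR=0.0068). Matr3, a protein of the nuclear matrix, was higher in U2AF1(S34F) mice in both (0.51, 0.07, FDR=0.00026, and 0.45, 0.09, FDR=0.0035). Under vehicle Mbnl3 was also higher (0.44, 0.08, FDR=0.0021) and Sfpq lower (-0.46, 0.09, FDR=0.0028), and under the drug Rbfox2 was higher (0.71, 0.19, FDR=0.016).

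Over the 20 mice the mean scaled level of the 10 genes ran from -1.47 to 1.06 in U2AF1(WT) sudemycin mice, from -0.80 to -0.10 in U2AF1(WT) vehicle mice, from -0.32 to 0.40 in U2AF1(S34F) vehicle mice and from 0.43 to 1.03 in U2AF1(S34F) sudemycin mice. Among 15392 genes the 5 whose scaled level lay closest to it were G3bp2 (root mean square difference 0.455), Psmd7 (0.474), Ccdc43 (0.483), Anp32e (0.506) and Pkig (0.508).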

How the data were processed

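RNA of 20 marrow samples was sequenced from stranded libraries depleted of ribosomal RNA, as paired reads of 126 bp. Per the labels the reads were aligned to mm9 with TopHat2 2.0.8 and handled with SAMtools. The authors deposited raw read counts for each gene and each splice junction; the counting programs and their strand setting are not given in the sources used here. A further deposited column, another kind of value, marks junctions that skip an exon and was used only to read the table.

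Samples were grouped by the labelled genotype and treatment. The genes and gene lists were chosen with earlier results of these data known. Tests of gene counts used R 4.3.3 and edgeR 4.0.16 (robust quasi-likelihood after filterByExpr and TMM, prior count 2, Benjamini-Hochberg over all genes, FDR<10%), on the 10 mice of each of 5 comparisons, and on all 20 for the interaction. CPM are counts scaled to the TMM-adjusted library size. Gene symbols, exons and stop codons came from the GENCODE annotation of the same genome build, and copies elsewhere were found with minimap2 2.31-r1302.

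Cassette exons, alternative 5′ and 3′ splice sites and mutually exclusive exons were built from junctions that join annotated splice sites, in annotated or other pairings. Inclusion and skipping counts were set against each other in edgeR (quasi-likelihood with adjusted deviances, negative binomial dispersion of 0, a term per mouse). The dispersion of 0 followed an earlier analysis of these data, whose results were known. Events needed 10 reads per mouse on average, and 1 on each isoform. Each event type was adjusted on its own, and the interaction over all types. Retained introns were not analysed here. Junction shares were tested in the same way.

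Named were all 10 genes, every called exon, the most-read exon of a gene without one, up to 5 called junctions with an unannotated site, up to 2 called genes in each direction from each list of other regulators, and the 5 genes closest in pattern. A result for 1 of the other regulators is not reported here. Alternatives were DESeq2 1.42.0, its size factors, other filters and limits, limma 3.58.1 on inclusion, an estimated dispersion, a single model of all mice, the legacy quasi-likelihood, a block by replicate number, and each mouse left out in turn. The tests were also run on simulated data with known changes.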

Additional observations from a re-analysis of the deposited data

Results flagged for a closer look

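In 10 of 108 groups of 5 mice tested, 1 mouse lay far from the other 4, where chance flags about 5% of groups. The 10 were spread over all 4 groups, with 2 in each vehicle group and 3 in each sudemycin group. In expression, Hnrnpa2b1 was at 428.1 CPM in U2AF1(WT) vehicle mouse 4, with the others at 365 to 380, and at 545.6 CPM in U2AF1(S34F) vehicle mouse 1, with the others at 443 to 467. Ptbp1 was at 155.6 CPM in U2AF1(S34F) vehicle mouse 7, with the others at 182 to 190. In inclusion, the 57-base exon of Hnrnpd was at 51.1% in U2AF1(WT) vehicle mouse 2 against 57.7 to 60.0% in the others, and the 50-base exon of Hnrnph1 at 91.5% in U2AF1(S34F) sudemycin mouse 12 against 92.9 to 93.4%. The exons that were nearly always included gave 4 more: the 156-base exon of Hnrnpa1 at 98.5% and the 48-base exon of Hnrnpc at 98.1%, both in U2AF1(WT) sudemycin mouse 10, and the 129-base exon of Hnrnpk at 99.6% in U2AF1(WT) sudemycin mouse 6 and at 99.9% in U2AF1(S34F) sudemycin mouse 6. The Hnrnpa2b1 junction from 51412054 to 51413410 had a share of 4.15% in U2AF1(S34F) sudemycin mouse 12, with the others at 2.42 to 2.77%.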

How the results depend on the processing

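DESeq2, its size factors in edgeR and a filter at 1 CPM kept all 14 expression calls, 12 were kept with no filter and 9 at FDR<5%. In U2AF1(S34F) mice the drug changed 1 gene with no filter, 0 in a single model and 0 at FDR<5%. All 19 exon calls were kept at other read minimums and 12 with a limit of 5 points, which left 0 events for the drug in U2AF1(S34F) mice and 4 in the joint comparison. limma on Ψ kept 7 of 19 and called 0, 1, 1 and 4 events in the comparisons after the first. An estimated dispersion, planned for events, called 0 member events in each of the 5 comparisons. Over all genes it called 0 cassette exons in every comparison but the joint one, where it called 29. For junction shares, where it was added after seeing the data, it called 0 member shares in each (over all genes 0, 0, 0, 1 and 71). Counted as junction shares, 11, 7, 11, 16 and 31 were called. Splicing was fitted first with the legacy quasi-likelihood of edgeR, and the fit with adjusted deviances was chosen after both had been seen; the former kept all 19 exon calls, called 7 events under the drug between genotypes, and called 14, 5, 8, 15 and 29 junction shares. With lengths of the longest coding transcript, 2 of 10 levels held their place. No call reversed. The cause of these changes was not tested.

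Mice with the same number correlated over 0.1 in 3 of 7 pairs (-0.111 to 0.211). Mice with different numbers were not compared, so these values cannot decide whether the numbers pair them. With the replicate block 2 members in expression were called under vehicle and 2 under the drug, and 0 and 3 events. Of 15 single calls between genotypes the block kept 6. The events of mutually exclusive exons could not be fitted with the block under the drug.

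Leaving out 1 mouse at a time, members called in expression ranged from 0 to 0 and 0 to 2 for the drug in U2AF1(WT) and U2AF1(S34F) mice, 2 to 5 and 3 to 5 between genotypes under vehicle and drug, 4 to 6 in the joint comparison and 0 to 0 for the interaction. Events ranged from 1 to 1, 0 to 1, 2 to 4, 4 to 7, 5 to 8 (5 without U2AF1(S34F) mouse 9) and 0 to 0. Of single values 268 of 330 kept their call. Leaving out a mouse was run for junction shares as a value only, and moved none to the other sign. Rarer isoforms rest on fewer reads: the junctions of the exon after the stop codon of Hnrnpa2b1, each taken alone, had 82.9 to 159 reads per mouse on average. The 120-base exon of this gene had 3676, but summed over its inclusion and skipping junctions, so that these counts are not alike.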
